A study of Cavia porcellus with 30 samples.

Results

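Kidney RNA of guinea pigs given a high or a low dose of mercuric chloride was compared 33 h after the injection. The comparison holds the 5 animals labelled with the high dose (1.50 mg/kg) and the 5 labelled with the low dose (1.00 mg/kg) at that time, 10 of the 30 animals of the series. All were male Hartley guinea pigs, an outbred stock, bought as young animals of a few weeks of age. Every animal carried a jugular vein catheter, received 1 intraperitoneal injection and had its food removed for the last hours before the kidneys were taken. The 5 vehicle animals of 33 h, which received saline, serve here as a reference level only, and the 10 dosed animals of 9 h as a second look at the same pair of doses. Each animal goes by the last number in its label, which gives 53 to 57 for the high dose, 48 to 52 for the low dose and 43 to 47 for vehicle.

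Mercuric chloride is a classical kidney toxicant. Inorganic mercury binds tightly to the thiol groups of proteins and of glutathione, is taken up mainly by the epithelium of the proximal tubule and injures that segment first. The proximal tubule reabsorbs most of the filtered water, salt, glucose and amino acids, and its cells can be lost, dedifferentiate and divide again after such an injury. Each library was made from a powdered whole kidney, so that fewer cells of a type and less RNA per cell cannot be told apart. The files identify each transcript by its Ensembl name and do not pair it with a gene. Marker genes of the nephron or of other cells could therefore not be read, the tissue rests on the labels, and 4 transcripts are described by identifier and length, without gene names, genome positions or sequences.

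The files list 25824 transcripts, of which 19729 held enough counts to be tested. Total estimated counts per animal lay between 24599327 and 29941680 with the high dose and between 25222566 and 28861404 with the low dose. The doses did not differ detectably in total counts (two-sided exact permutation test, p = 0.611), in the number of transcripts with a count (p = 0.548) or in the share of counts on the 10 most abundant transcripts (p = 0.968). The TMM factor, which corrects each library for its composition, was 1.061 ± 0.0266 (SD, n = 5) with the high dose and 1.011 ± 0.0411 (SD, n = 5) with the low dose (exact permutation test, p = 0.0556, and 0.222 after Benjamini-Hochberg adjustment over 4 library measures). Low-dose animals 48 and 49 were at opposite ends of their group. Log2 CPM (counts scaled to a common library total) of animal 48 correlated more closely with the high-dose animals (median Pearson's r of 0.953 across transcripts) than with the other low-dose animals (0.946). For animal 49, the median r was 0.922 with the high-dose animals, 0.947 with the other low-dose animals and 0.953 with vehicle. Animal 52 had medians of 0.949 with the high-dose and 0.948 with the other low-dose animals, and the median r with the other low-dose animals was 0.946 to 0.948 for all 5. These r values are across transcripts, which are not independent replicates. The main counts are given with and without these animals.

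The doses differed at 33 h in 5657 transcripts, or 28.7% of those tested (edgeR's quasi-likelihood test, 0.1 or less after Benjamini-Hochberg adjustment). Of these, 2707 transcripts (13.7% of those tested) were higher and 2950 (15%) were lower with the high dose. Most differences were small. The median log2 fold change was 0.38 among the transcripts that rose and -0.50 among those that fell, and 993 transcripts (5.03% of those tested) were both called and at least 2-fold apart, 401 of them higher and 592 lower. At least 4-fold apart were 123 higher and 139 lower transcripts, at least 8-fold 51 and 64, and at least 16-fold 19 and 38. At the threshold, the last called transcript had an adjusted p of 0.0999 and a log2 fold change of 0.85 in edgeR, and the first one not called an adjusted p that rounds to 0.1 and a log2 fold change of -0.69.

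Without animal 48, 6552 transcripts were called and 1321 of the calls were at least 2-fold apart, with 5401 of the transcripts shared with the list from all 10 animals. Without animal 49, the numbers were 4319 and 740, and 4233 were shared. The balance of directions depended on the scaling. With TMM factors 47.9% of the called transcripts were higher with the high dose, whereas scaling to library totals alone gave 61.7% (3620 higher and 2245 lower), and the deposited TPM (also scaled for transcript length) in limma-trend gave 66.1% (4205 higher and 2159 lower). The median log2 fold change of all transcripts was -0.005, 0.069 and 0.064 in these fits. The TPM fit also changed the test. Leaving out single animals moved the balance as well, to 3275 higher and 3277 lower without animal 48 and to 3023 higher and 3020 lower without animal 52. Which direction held more transcripts was therefore not stable, whereas the total number called was 5865 on library totals and 6364 on TPM.

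**Figure D1:**
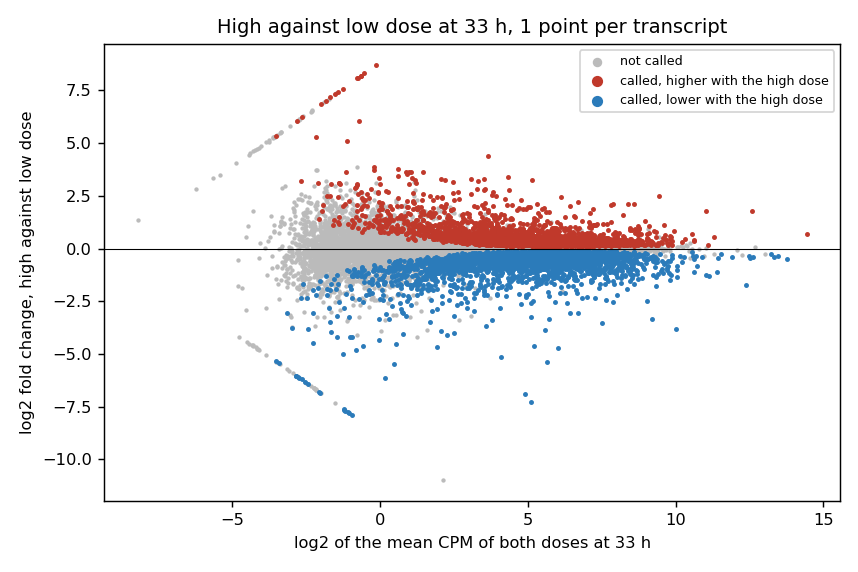
Log2 fold change of the high against the low dose at 33 h (y axis) against the log2 of the mean CPM over both doses (x axis), with 1 point for each of the 19729 transcripts tested. Red points are the 2707 called transcripts that were higher and blue points the 2950 that were lower with the high dose, and the straight diagonal rows at the left edge are transcripts without counts in one of the doses, whose fitted fold has no fixed size.

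Called transcripts were found at all levels of expression, and their direction shifted with the level. Among the 2721 transcripts with a mean of at most 1 CPM over all 30 animals, 7.86% were called, 132 higher and 82 lower. Between 1 and 10 CPM the share was 18.9% of 5812 transcripts, with 570 higher and 527 lower. It was 34.9% of 9271 transcripts between 10 and 100 CPM (1583 higher, 1652 lower) and 57.2% of 1857 transcripts between 100 and 1000 CPM (413 higher, 650 lower). Of the 68 transcripts above 1000 CPM, 48 or 70.6% were called, of which 9 were higher and 39 lower with the high dose. Falls outnumbered rises above 1000 CPM under the other scalings too, with 11 higher and 36 lower on library totals and 13 higher and 27 lower on TPM. Between 10 and 100 CPM, and between 100 and 1000 CPM on TPM, the balance turned to rises, with 577 higher and 522 lower in the latter class. More counts make smaller differences detectable, so the rise of the called share with the level does not show that abundant transcripts changed more. The median size of the called changes was 2.02 on the log2 scale up to 1 CPM, 0.351 between 10 and 100 CPM and 0.595 above 1000 CPM. Lengths were similar, with medians of 2526 bases for those that rose, 2491 for those that fell and 2503 for those not called.

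**Figure D2:**
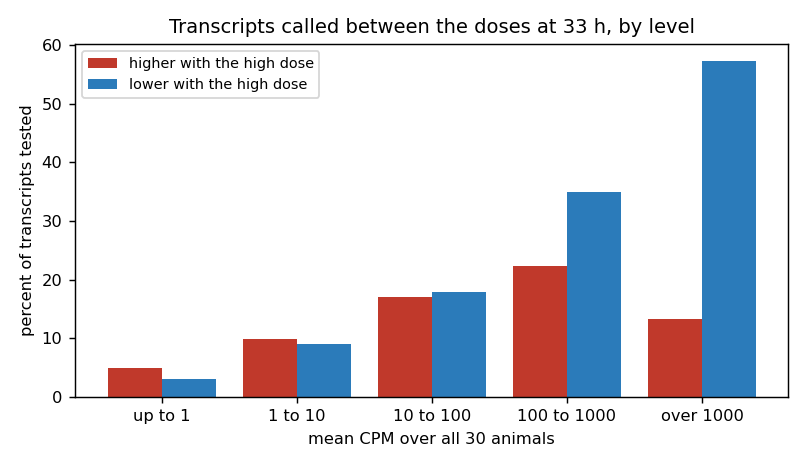
Percent of tested transcripts called between the doses at 33 h (y axis) in 5 classes of mean CPM over all 30 animals (x axis), with red bars for transcripts higher and blue bars for transcripts lower with the high dose. The bars are of like height between 1 and 100 CPM, and above 1000 CPM the 39 lower transcripts outnumber the 9 higher ones. With other scalings the balance below 1000 CPM moved towards rises.

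In terms of the counts of a library, the called transcripts formed a large part of the kidney's RNA. Transcripts called higher with the high dose took 15.8 ± 0.442% of the estimated counts (SD, n = 5) in vehicle animals, 18.9 ± 2.6% in low-dose animals and 27.7 ± 1.27% in high-dose animals. Transcripts called lower took 41.8 ± 1.12%, 37.1 ± 4.31% and 26.2 ± 1.56% in the same groups (SD, n = 5 each). The low-dose animals ranged from 15.3 to 21.6% in the first share and from 32.2 to 43.0% in the second, and these ranges reach the vehicle level at one end without reaching the high-dose animals at the other. With the transcripts called without animal 48, the low-dose shares were 17.5 ± 2.47% and 38.9 ± 3.74% (SD, n = 4), and the high-dose shares 26.4 ± 1.48% and 26.7 ± 1.56% (SD, n = 5). With those called without animal 49, they were 15.2 ± 1.88% and 29.5 ± 2.98% for the low dose and 21.3 ± 1.31% and 20.8 ± 1.45% for the high dose. Since the doses themselves chose these transcripts, the shares describe their size and are not tested.

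The 5 high-dose and the 5 low-dose animals did not overlap in 3111 transcripts, or 15.8% of those tested, with the high dose above in 1582 and below in 1529. Of the called transcripts 53.2% had no overlap, and of those called and at least 2-fold apart 63.9%. Without animal 48 the number without overlap was 4668 (23.7% of those tested), and without animal 49 it was 3239 (16.4%), in both cases with 4 low-dose animals in place of 5, which makes a separation easier to reach. At 16-fold or more, 14 of the 38 falls but only 1 of the 19 rises were without overlap. Of the 18 rises of this size with overlap, 15 had 0 counts in all 5 low-dose animals. Such near-silent transcripts were few. At most 3 counts in every low-dose animal were found for 75 transcripts, of which 21 or 28.0% were called, a share near the 28.7% of all transcripts tested, and none of the 21 had 4 or more counts in all 5 high-dose animals. Their highest mean with the high dose was 1.84 CPM. At most 3 counts in every high-dose animal were found for 84 transcripts, of which 29 or 34.5% were called and 6 had 4 or more counts in all 5 low-dose animals, with a highest low-dose mean of 2.24 CPM. Both sets were picked for low counts in one of the doses compared, so nothing is read from these shares.

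The rise without overlap that was largest in fold, among transcripts whose log2 CPM averaged 1 or more, was that of ENSCPOT00000003543.3, a transcript of 1913 bases. Its level was 9.70, 45.3, 22.4, 36.9 and 6.54 CPM in high-dose animals 53 to 57. In low-dose animals 48 to 52 it was 3.69, 0.0369, 0.385, 0.310 and 1.23 CPM, and in vehicle animals it lay between 0.150 and 0.688 CPM. The lowest high-dose animal, 57, was above the highest low-dose animal, 48, and low-dose animals 50 and 51 lay within the range of the vehicle animals, while 49 lay below it with a single count. The difference between the doses was 4.38 on the log2 scale, with a standard error of 0.87 (edgeR, adjusted p = 0.01). Without low-dose animal 48 it was 5.58 (edgeR, adjusted p = 0.0029), with limma-trend on log2 CPM 5.22, and on the log2(TPM + 0.5) scale 3.77.

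The largest rise in absolute level was that of ENSCPOT00000008570.3 (2019 bases). It stood at 9700.4, 9937, 10452, 10119 and 7151 CPM in high-dose animals 53 to 57, and at 4956, 915, 1705, 2017 and 4251 CPM in low-dose animals 48 to 52. Vehicle animals had 869 to 1179 CPM. Low-dose animal 49 was thus at the vehicle level, animals 50 and 51 were somewhat above it, and animals 48 and 52 were several times above it. The high-dose mean was 9472 ± 1326 CPM (SD, n = 5), the low-dose mean 2769 ± 1740.3 CPM and the vehicle mean 1009 ± 129 CPM. The doses differed by 1.77 on the log2 scale, with a standard error of 0.403 (edgeR, adjusted p = 0.015).

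Among the transcripts that fell and whose log2 CPM averaged 1 or more, ENSCPOT00000009386.3 (1131 bases) had the largest fold change without overlap. It nearly vanished with the high dose, at 0.459, 0.199, 0.374, 0.649 and 0.580 CPM in animals 53 to 57, which correspond to 6 to 19 counts. The low-dose animals 48 to 52 had 3.03, 144, 168, 24.5 and 5.26 CPM, and the vehicle animals 296 to 479 CPM. All 5 low-dose animals were below all vehicle animals and above all high-dose animals, and animals 48 and 52 were closest to the high dose. The doses differed by -7.25 on the log2 scale, with a standard error of 1.34 (edgeR, adjusted p = 0.0087). Its size depended on low-dose animal 50 and on the scale. It was -6.62 without animal 50, -5.83 with limma-trend on log2 CPM, and -4.92 on the log2(TPM + 0.5) scale, which understates the change of low values.

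The largest fall in absolute level was that of ENSCPOT00000017568.1 (1542 bases), one of the most abundant transcripts of these kidneys. High-dose animals 53 to 57 had 12036, 10118, 11201, 12190.5 and 12557 CPM. Low-dose animals 48 to 52 had 14488, 18836, 18571, 16452 and 13037 CPM, and vehicle animals 18818 to 19507 CPM. Animals 49 and 50 were at or just below the vehicle range, and animal 52 was the closest to the high-dose animals. The change was modest, at -0.49 on the log2 scale with a standard error of 0.112 (edgeR, adjusted p = 0.015). Its call did not hold in limma-trend on log2 CPM (-0.48, adjusted p = 0.15) or on TPM (-0.40, adjusted p = 0.11). Lack of overlap was a condition for choosing these 4 transcripts and is not a separate result.

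**Figure D3:**
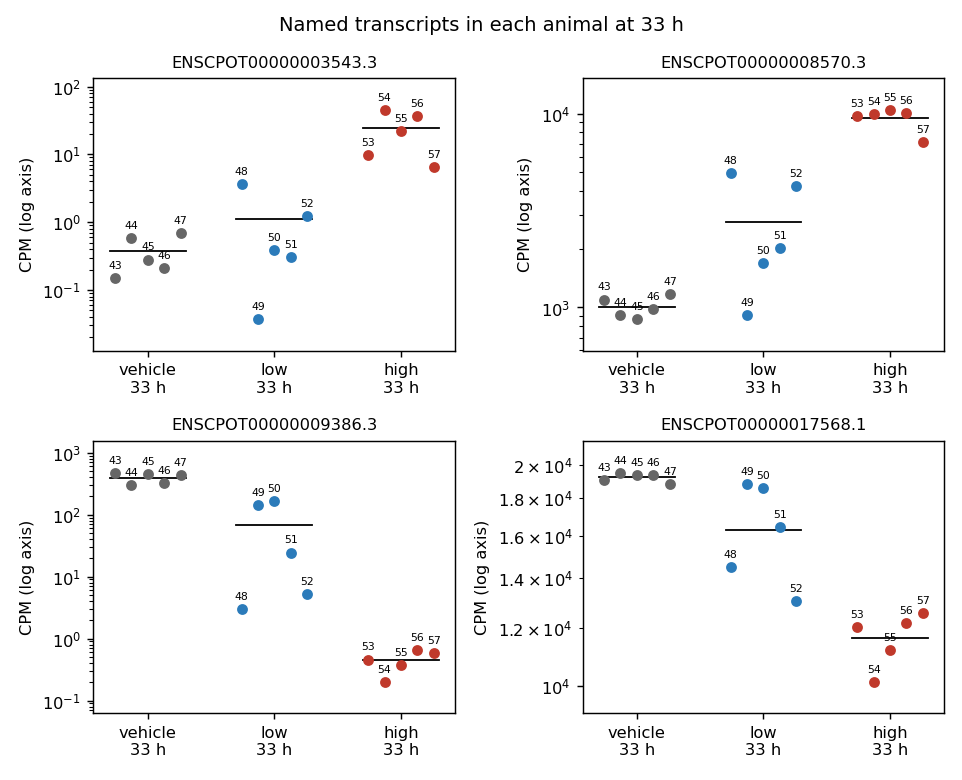
CPM on a log axis (y axis) of the 4 named transcripts in each animal of the vehicle (grey), low-dose (blue) and high-dose (red) groups at 33 h, with 1 point per animal, its number beside it and a black line at the group mean. The low-dose animals spread between both other groups, with 48 and 52 towards the high dose and 49 within the range of the vehicle animals in 2 of the 4 transcripts.

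The order of the low-dose animals varied among these 4 transcripts and was next counted over all called transcripts. In 56.2% of the called transcripts, animal 48 was the low-dose animal nearest to the high dose, followed by animal 52 with 25%. Animal 49 was the farthest from the high dose in 59.9% of the called transcripts, followed by animal 50 with 21.4%. Among transcripts that were not called, animal 48 was nearest in 28.5% and animal 49 farthest in 31.2%. Where an animal stands in its group bears on whether a transcript is called, so these shares are not independent of the calls.

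**Figure D4:**
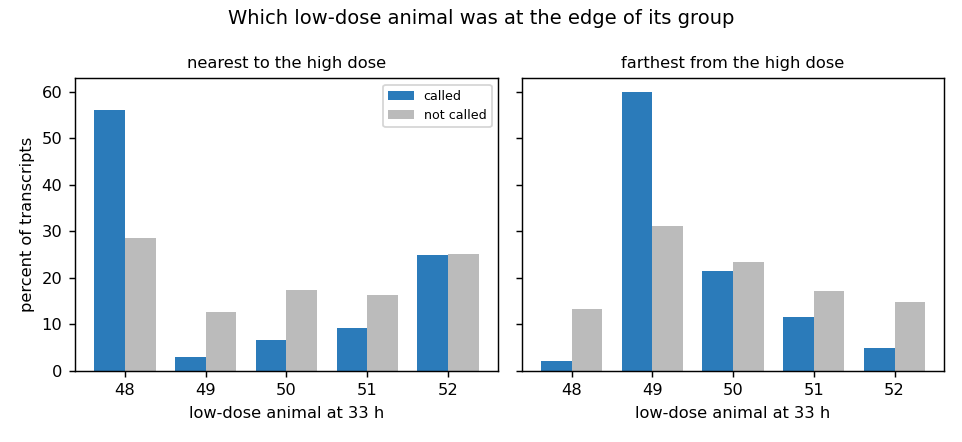
Percent of transcripts (y axis) in which each of the 5 low-dose animals at 33 h (x axis) was nearest to the high dose (left panel) or farthest from it (right panel), for the 5657 called (blue) and the 14072 not called (grey) transcripts. Animal 48 leads the left panel with 56.2% and animal 49 the right panel with 59.9% of the called transcripts.

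Each animal was therefore also placed between the doses with transcripts called from the other 9 animals alone. On this scale, for each transcript, 0 is the mean log2 CPM of the low-dose animals and 1 that of the high-dose animals used in the fit, and an animal's placement is its median over transcripts. Low-dose animal 48 was placed at 0.57, 49 at -0.61, 50 at -0.16, 51 at 0.06 and 52 at 0.36. High-dose animals 53 to 57 were placed at 0.88, 1.16, 0.96, 1.07 and 0.68. All high-dose animals were above all low-dose animals, and the gap between low-dose animal 48 and high-dose animal 57 was small beside the range of the low-dose group. The spread was wider with the low dose (0.044 ± 0.46, SD, n = 5) than with the high dose (0.95 ± 0.185, SD, n = 5), a difference in spread that was not tested. Vehicle animals of 33 h, placed with the fit of all 10 dosed animals, were between -0.44 and -0.21. Each left-out animal is placed on an axis and a list of transcripts made without it. The values of the dosed animals are therefore not on exactly the same scale as each other or as the vehicle animals. Leaving out an animal at the end of its group moves the mean of the others away from it, which widens the spread of such placements.

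**Figure D5:**
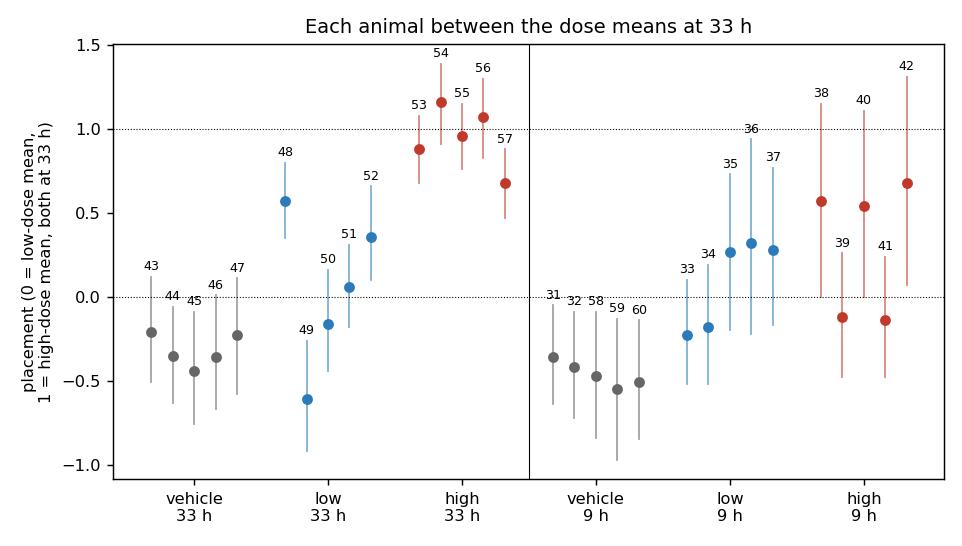
Placement of each animal between the low-dose mean (0) and the high-dose mean (1) of 33 h (y axis), by group (x axis), with points for the median and vertical lines for the quartiles over transcripts. At 33 h the high-dose animals sit between 0.68 and 1.16 and the low-dose animals between -0.61 and 0.57, whereas at 9 h the animals of both doses overlap.

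The spread of single transcripts gave a similar account. The median SD of log2 CPM was 0.228 in the low-dose group, 0.167 in the high-dose group and 0.178 in the vehicle group. The SD was larger with the low than with the high dose in 67.0% of all transcripts, in 76.8% of the called and in 63.1% of the other transcripts. The level of low-dose animal 48 lay within the range of the 5 high-dose animals in 38.6% of the transcripts called without it, and within the range of the vehicle animals in 25.6%. For animal 52 the shares were 25.8% and 33.3%, and for animal 51 they were 12.0% and 46.2%. Animal 50 lay within the high-dose range in 9.41% and within the vehicle range in 50.3%, and animal 49 in 4.56% and 62.0%. The high-dose animals lay within the vehicle range in 7.82 to 17.2% of the transcripts, and within the low-dose range in 9.43 to 31.4%, with the highest shares in animal 57. In these called transcripts, the low-dose animals thus differed in how often they lay within the vehicle or the high-dose range. Each share rests on the list called without that animal, and these lists differ. No share over all transcripts tested or for a further vehicle animal is given, so how unusual these shares are was not tested.

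Set beside the vehicle level, the low-dose mean lay between vehicle and the high dose in 4394 of the 5657 called transcripts (77.7%), compared with 60.8% of all transcripts tested. Transcripts that rose had a median log2 difference of 0.52 between the high dose and vehicle and of 0.14 between the low dose and vehicle. For those that fell, the medians were -0.60 and -0.12. Among called transcripts at least 2-fold apart, they were 1.98 and 0.51 for the rises and -1.74 and -0.43 for the falls. In another 1193 called transcripts (21.1%, close to the 23.1% of all transcripts) the vehicle mean lay between the doses, 458 of them higher and 735 lower with the high dose. The high-dose mean was between the others in 70 (1.24%, against 16.1% of all transcripts). The share with the low dose in between was 68.2% without low-dose animal 48 and 82.4% without animal 49. Calling transcripts for a gap between the doses makes the order with the high dose in the middle unlikely, which raises the other shares. The excess of 77.7% over 60.8% is therefore not read as a result. Both doses share the vehicle animals, and these values describe where the levels lie.

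A level particular to the low dose was rare. All 5 low-dose animals were above every vehicle and high-dose animal in 11 transcripts (0.0558% of those tested) and below all of them in 7 (0.0355%). Of these 18 transcripts, 13 were also called between the doses, where 28.7% of all transcripts and 96.8% of those without overlap between the doses were called. The lack of overlap that picked them bears on the call, so their number called is only a description. In the 9 called ones with the highest level at the low dose, the low-dose mean was 1.10 to 6.42 times the higher of the other group means, with a median of 1.14. Their number rested on animal 48. Without it, the other 4 low-dose animals were outside both groups in 91 transcripts, and without any other low-dose animal in 30 to 35. Fewer animals make such a separation easier to reach, which holds for each of these numbers.

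The same doses were compared at 9 h, in other animals. No transcript was called (0% of those tested, edgeR's quasi-likelihood test), 638 had an unadjusted p under 0.05, DESeq2 called 14 and limma-trend 0. Of the transcripts called at 33 h, 4487 (79.3%) had the same direction between the doses at 9 h, against 64.3% of all transcripts and 58.3% of those not called. The differences at 9 h were small, with a median log2 fold change of 0.074 for the transcripts that rose at 33 h and of -0.108 for those that fell. For those at least 2-fold apart, the medians went from 1.54 at 33 h to 0.17 at 9 h for the rises and from -1.44 to -0.32 for the falls. Across all transcripts, Spearman's rho between the dose differences of both times was 0.33. The times used different animals, and transcripts are not independent, so these values describe the lists.

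On the placement scale of the 33 h doses, high-dose animals 38 to 42 at 9 h were at 0.57, -0.12, 0.54, -0.14 and 0.68. Low-dose animals 33 to 37 at 9 h were at -0.23, -0.18, 0.27, 0.32 and 0.28. The groups overlapped, with high-dose animals 39 and 41 below 3 of the low-dose animals and high-dose animals 38, 40 and 42 above all of them. Vehicle animals of 9 h lay between -0.55 and -0.36, below every dosed animal of that time. ENSCPOT00000009386.3 showed the same split among the 9 h animals. It was at 28.7, 37.6 and 36.7 CPM in high-dose animals 38, 40 and 42 and at 214 and 115 CPM in animals 39 and 41. In low-dose animals 35 to 37 it was at 63.4, 62.5 and 56.4 CPM, and in animals 33 and 34 at 376 and 302 CPM. The doses overlapped at 9 h, and their difference of -0.99 on the log2 scale (standard error 0.742) did not pass the test (edgeR, adjusted p = 0.99). ENSCPOT00000008570.3 was at 3574, 2987 and 4144 CPM in high-dose animals 38, 40 and 42, at 1259 and 1356 CPM in 39 and 41, and at 1233 to 2324 CPM in the low-dose animals of 9 h. Both transcripts are among the called ones that set this placement scale, so their values are no separate evidence for the split.

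A direct test of the dose difference at 33 h against that at 9 h called 196 transcripts, or 0.993% of those tested (edgeR over the 4 dosed groups, adjusted p of 0.1 or less), 110 with a higher and 86 with a lower difference at 33 h. An unadjusted p under 0.05 was found for 2822 transcripts. Of the 196, 193 were also called between the doses at 33 h, where 28.7% of all transcripts were called, and each of the 193 kept its direction. The 33 h difference is a part of this contrast and the 9 h differences were small. This overlap was therefore close to given in advance and is only a description. The number of 196 rested on single animals. The direct test called 1230 transcripts without low-dose animal 48 of 33 h, 110 without high-dose animal 53, 99 without high-dose animal 40 of 9 h, and 66 without low-dose animal 35 of 9 h. Without any one of animals 34, 36 to 39, 41, 49 to 51 or 54 to 56, it was between 1 and 11. Without animal 33, 42, 52 or 57 it was 203, 208, 200 and 266. With all animals kept, DESeq2 called 937, limma-trend 254, a fit of all 30 animals 858 and a fit without the filter on low counts 145. How many transcripts set the doses further apart at 33 h than at 9 h was therefore not settled by these 20 animals. For ENSCPOT00000003543.3 the difference was 4.59 on the log2 scale (standard error 1.1, edgeR, adjusted p = 0.081), and it was called in 4 of the 20 fits with 1 animal removed (those without animal 33, 48, 53 or 57), with a difference of 3.91 to 5.77 and an adjusted p of 0.0079 to 0.2 over the 20 fits, and in all 4 other fits tried (DESeq2, limma-trend, all 30 animals and no filter on low counts), with an adjusted p of 0.0037 to 0.093. For ENSCPOT00000009386.3 it was -6.24 (standard error 1.55, edgeR, adjusted p = 0.089), and it was likewise called in 4 of these 20 fits (those without animal 33, 42, 48 or 52), with a difference of -6.75 to -5.58 and an adjusted p of 0.022 to 0.19, and among the other fits it was called with DESeq2 (adjusted p = 0.00077) and with all 30 animals (adjusted p = 0.02), and not with limma-trend (adjusted p = 0.12) or without the filter on low counts (adjusted p that rounds to 0.1). Both were named for their large fold at 33 h, which is one side of this contrast, so their calls are no separate evidence. The difference did not pass the test for ENSCPOT00000008570.3 (1.11, standard error 0.546, adjusted p = 0.37) or for ENSCPOT00000017568.1 (-0.42, standard error 0.15, adjusted p = 0.2), although DESeq2 called the latter (-0.43, adjusted p = 0.098).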

How the data were processed

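Groups were taken from the sample labels. The authors made stranded poly-A libraries from powdered kidneys, sequenced them in paired reads and pseudo-aligned them with kallisto (version 0.42.4 in the submitters' processing notes) to the Ensembl guinea pig transcriptome, whose release is not given in the sources used here. The deposited estimated counts per transcript are not normalized. The deposited TPM values take account of effective transcript length and sum to the same total in each animal. Kallisto divides reads among similar transcripts, so the counts of isoforms and close paralogs are uncertain.

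Estimated counts were rounded. In R 4.3.3, edgeR 4.0.16 (filterByExpr over 30 animals and 6 groups, TMM factors, glmQLFit and glmQLFTest, only the compared groups in a fit) tested 19729 transcripts, with calls made at 0.1 or less after Benjamini-Hochberg adjustment, as in the study. The study used Sleuth, which also draws on resampled reads that were not used here. CPM are rounded counts scaled to library totals with TMM factors, and their log2 was taken with a prior count of 2. Placements, ranges and the nearest and farthest animals were computed from these values in Python 3.11.15. Alternatives were DESeq2 1.42.0, limma-trend (limma 3.58.1) on log2 CPM and on log2(TPM + 0.5), RLE factors, library totals alone, no filter, the filter of Sleuth (5 counts in 47% of animals), other samples in the fit, an adjusted p-value of 0.05, a 2-fold minimum, and leaving out each animal. The fits were also run on simulated counts with known changes, in which all animals of a group shared the same mean. No result of that run is given here.

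The named transcripts are, in each direction, the called transcript without overlap between the doses that had the largest fold change at an average log2 CPM of 1 or more, and the one with the largest difference of mean CPM. The gene table (assembly mCavPor4.1) could not be matched to Ensembl transcripts, and the lists of genes and cell type markers drawn up for this comparison were not used. The comparison, lists and rules were chosen with earlier results of these data known. Leaving out animals for the counts of low-dose extremes, of transcripts without overlap, of shares of counts, of 2-fold calls, of the order of levels and of directions at 9 h, and the repeats of the direct test for the named transcripts, were added after seeing the data. P-values of the fits weigh a difference between groups against the spread between animals, 5 a group unless an animal was left out.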

Additional observations from a re-analysis of the deposited data

Results flagged for a closer look

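Of 38 groups of 5 values checked for an animal far from the others, 3 held one, where chance gives about 1 in 20. In low-dose animal 37 of 9 h, ENSCPOT00000003543.3 reached 1.68 CPM, where the next animal of that group had 0.563 CPM. ENSCPOT00000008570.3 was at 7151 CPM in high-dose animal 57 at 33 h, below the next animal at 9700.4 CPM and above all low-dose animals. The library of low-dose animal 51 held 25222566 estimated counts, where the next animal had 28450388.

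The dose difference was larger or smaller at 33 h than at 9 h in 196 transcripts in a direct test (edgeR, adjusted p of 0.1 or less), a number that was 1230 without low-dose animal 48 and 1 without high-dose animal 54 or 55. The difference between the times was 4.59 on the log2 scale for ENSCPOT00000003543.3 and -6.24 for ENSCPOT00000009386.3, and each was called in 4 of the 20 fits with 1 animal removed, over which the differences were 3.91 to 5.77 and -6.75 to -5.58. Both transcripts had been named for their large fold at 33 h.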

How the results depend on the processing

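The number of transcripts called between the doses at 33 h was 5657, and 993 with a 2-fold minimum. It lay between 3946 and 6552 under the other alternatives, with 4179 (without high-dose animal 54) to 6552 (without low-dose animal 48) when each animal was left out. At 9 h, DESeq2 called 14 transcripts in place of 0, and leaving out each animal gave 0 to 2 (2 without high-dose animal 39 and 1 without low-dose animal 37). The dose difference between the times was called in 937 transcripts with DESeq2 and in 858 with all 30 animals in the fit, in place of 196, and in 1 to 1230 when each animal was left out. The cause was not tested. The 18 transcripts with all low-dose animals outside both other groups became 30 to 91. The share of called transcripts with the low dose between vehicle and the high dose was 77.7%, 78.8% with a 2-fold minimum, and 68.2 to 82.4% when each low-dose animal was left out. Of 76 values of the named transcripts at 33 h under alternatives, 74 kept their direction and their side of the threshold, and the other 2 are those of ENSCPOT00000017568.1 in limma-trend. All 20 placements of left-out animals under alternatives moved by less than 1 SD.

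When each animal was left out, the difference in total counts (high minus low dose) ranged from -1216000 to 163200, that in the share of the 10 most abundant transcripts from -0.6387 to 0.2855 percentage points, and that in the TMM factor from 0.0358 to 0.06285 (exact permutation p from 0.0317 to 0.111). No paired analysis was possible because the animals' numbers are not shared between groups. Of the transcripts up to 1 CPM, 7.86% were called, and the part of depth in this share was not tested.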
